A study of Mus musculus with 45 samples.

Results

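The light chain variable (V) segments of the immunoglobulin loci were followed through the sorted B cells of the draining lymph node (dLN). Of 55450 genes quantified, 163 were light chain V segments by symbol (160 Igkv, 3 Iglv), and the 104 with a summed expected count of 100 or more over the 21 B cell samples (101 Igkv, 3 Iglv) were described. Of the remainder, 26 were at 0 and 33 lay between 0 and 100. The 104 held 99.98% of all light chain V counts, or 2461082 counts. The members were thus chosen by their counts in the samples described here. Just inside the threshold were Igkv4-56 (127 counts) and Igkv4-71 (189.6 counts), and just outside were Igkv11-106 (84 counts) and Igkv12-40 (88.2 counts).

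All mice came from the B6.129P2-S1pr4tm1Dgen/J strain, backcrossed at least 10 times to C57/BL6, and were males and females 8 to 12 weeks old. S1PR4-/- mice carry the disrupted S1pr4 allele in every cell, and WT mice were their littermates. Both genotypes received 20 µL of an incomplete Freund's adjuvant (IFA) emulsion with 50 µg ovalbumin (OVA) and 5 µg lipopolysaccharide (LPS) in the hind footpad. On day 9, germinal center (GC) B cells (B220+ GL7+ Fas+) and non-GC B cells (B220+ GL7- Fas-) were sorted from the dLN. There were 6 samples of WT GC B cells, 6 of S1PR4-/- GC B cells, 5 of WT non-GC B cells and 4 of S1PR4-/- non-GC B cells.

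An antibody light chain is built in each B cell precursor by joining 1 V segment to 1 joining (J) segment, next to a constant region (Igkc for kappa chains, Iglc for lambda chains). A mature B cell therefore transcribes mainly the V segment it rearranged, and the mixture of V transcripts in a sample reflects both the number of cells that carry each segment and the transcripts made by each cell. In a GC, B cells selected on antigen divide into clones and mutate their V segments, and plasma cells derived from them transcribe immunoglobulin genes at very high levels. In these bulk samples, more cells carrying a segment and more RNA of it per cell cannot be told apart.

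The 101 Igkv members span 3149 kb of chromosome 6 (chr6:67555497-70704177 in mm10), 38 on the plus and 63 on the minus strand, and belong to 18 of 20 kappa families. The 3 Iglv members span 176 kb of chromosome 16 (chr16:19085017-19260859), all on the minus strand. Annotation lists 98 members as V genes and 6 as V pseudogenes. Many members resemble each other: for each, the transcript was divided into words of 31 bases, and the median member shared 48.3% of its words with another annotated gene. Only 4 members shared none, 20 shared under 10% and 49 shared over 50%, so RSEM had to divide many reads between near-identical segments. Values of single members with high sharing are therefore uncertain.

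The V exons below are shown because their segments carry the results. Iglv1 and Iglv2 are a near-identical pair whose shares diverged between the populations, and the 4 kappa segments took large shares of single GC samples. Coordinates are mm10: Iglv1 chr16:19085017-19085316 and Iglv2 chr16:19260401-19260700 (both minus strand), Igkv16-104 chr6:68425774-68426072 and Igkv17-127 chr6:67861362-67861659 (both plus strand), and Igkv8-21 chr6:70314895-70315194 and Igkv6-20 chr6:70335841-70336138 (both minus strand). They are germline sequences of the V-coding exon from GENCODE M21 transcripts, of at most its last 300 bases, written 5′ to 3′, and capitals mark bases inside a 31-base word that occurs in another annotated gene.
Iglv1: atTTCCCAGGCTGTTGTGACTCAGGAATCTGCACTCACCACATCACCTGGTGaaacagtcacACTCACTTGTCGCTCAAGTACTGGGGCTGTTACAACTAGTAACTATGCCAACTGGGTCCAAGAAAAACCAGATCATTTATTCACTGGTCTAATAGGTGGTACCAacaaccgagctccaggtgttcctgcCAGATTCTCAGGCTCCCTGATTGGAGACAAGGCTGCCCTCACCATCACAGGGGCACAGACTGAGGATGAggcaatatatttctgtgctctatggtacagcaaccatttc
Iglv2: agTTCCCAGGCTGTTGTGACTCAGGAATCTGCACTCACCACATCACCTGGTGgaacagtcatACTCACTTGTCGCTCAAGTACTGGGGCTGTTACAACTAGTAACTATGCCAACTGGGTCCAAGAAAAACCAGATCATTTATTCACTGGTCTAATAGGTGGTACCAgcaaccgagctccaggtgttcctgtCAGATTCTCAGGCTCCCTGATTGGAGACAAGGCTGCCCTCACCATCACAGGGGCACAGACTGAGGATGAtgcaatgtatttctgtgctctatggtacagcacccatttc
Igkv16-104: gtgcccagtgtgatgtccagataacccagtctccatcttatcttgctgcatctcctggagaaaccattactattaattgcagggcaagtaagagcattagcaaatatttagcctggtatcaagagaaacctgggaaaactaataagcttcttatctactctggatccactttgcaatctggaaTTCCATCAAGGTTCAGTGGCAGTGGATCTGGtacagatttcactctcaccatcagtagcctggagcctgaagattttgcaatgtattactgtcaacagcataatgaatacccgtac
Igkv8-21: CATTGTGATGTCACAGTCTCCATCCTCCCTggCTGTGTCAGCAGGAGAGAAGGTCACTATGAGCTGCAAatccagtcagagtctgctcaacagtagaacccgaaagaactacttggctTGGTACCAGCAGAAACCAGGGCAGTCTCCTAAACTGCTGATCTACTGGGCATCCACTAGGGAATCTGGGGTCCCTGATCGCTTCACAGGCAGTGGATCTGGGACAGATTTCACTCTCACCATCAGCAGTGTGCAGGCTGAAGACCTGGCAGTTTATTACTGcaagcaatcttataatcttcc
Igkv6-20: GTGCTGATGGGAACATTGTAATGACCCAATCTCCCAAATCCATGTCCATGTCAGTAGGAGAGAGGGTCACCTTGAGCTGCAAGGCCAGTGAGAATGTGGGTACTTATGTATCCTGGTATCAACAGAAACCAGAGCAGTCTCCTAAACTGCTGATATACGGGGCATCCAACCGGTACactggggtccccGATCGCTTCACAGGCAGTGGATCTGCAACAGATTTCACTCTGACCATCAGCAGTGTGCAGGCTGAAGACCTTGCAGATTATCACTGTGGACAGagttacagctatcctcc
Igkv17-127: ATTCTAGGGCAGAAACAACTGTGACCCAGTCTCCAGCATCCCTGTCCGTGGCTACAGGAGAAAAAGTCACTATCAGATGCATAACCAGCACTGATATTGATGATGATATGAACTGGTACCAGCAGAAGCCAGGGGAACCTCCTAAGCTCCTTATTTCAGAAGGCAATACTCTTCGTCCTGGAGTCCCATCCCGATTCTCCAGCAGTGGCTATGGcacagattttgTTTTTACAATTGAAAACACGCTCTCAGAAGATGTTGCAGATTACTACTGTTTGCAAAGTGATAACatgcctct
Iglv1 and Iglv2 were identical at 292 of 300 aligned bases (97.3%), with 223 capital bases in each, all shared within the pair. Igkv16-104 had 31 capital bases, shared with Igkv14-100 alone. Igkv8-21 had 228 of 300 bases in shared words and Igkv6-20 had 269 of 298. Igkv17-127 had 279 of 298, shared with Igkv17-121, Igkv17-134 and others. Reads could thus be placed well for Igkv16-104 and less well for the other kappa segments shown.

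The targeted gene and the GC marker S1pr2 matched the labels. Total expected counts ran from 26299429 to 39258003 per B cell sample. S1pr4, the targeted gene, had 505 to 1205 counts in WT GC B cells, 2726 to 3098 in WT non-GC B cells and 0 to 6 in the 10 S1PR4-/- samples. S1pr2, a receptor that marks GC B cells, was at 467 ± 83.4 CPM (counts scaled to a common library size with TMM factors; SD, n = 6) in WT GC and 507 ± 87.5 CPM in S1PR4-/- GC B cells, and at 0.703 to 6.75 CPM in all non-GC samples. All 8 B cell markers were detected in every group, and 6 of them fell in WT and 5 in S1PR4-/- GC against non-GC B cells. Of all genes, 23.1% fell in WT and 22.9% in S1PR4-/- mice. Of 8 markers of resting follicular B cells, 7 fell in each genotype, with summed levels of 1124 to 3960 CPM in WT GC and 1209 to 1886 CPM in S1PR4-/- GC against 8812 to 9639 and 9192 to 10412 CPM in WT and S1PR4-/- non-GC B cells. The part of these differences in the V values was not tested. Of 8 T cell markers 2 of the 5 tested rose in GC B cells of each genotype (24.8% and 25.3% of all genes in WT and S1PR4-/- mice). Their summed level was 129 to 165 and 115 to 196 CPM in WT and S1PR4-/- GC, against 77.5 to 116 and 60.2 to 119 CPM in non-GC B cells. Cd3d, Cd3e and Cd3g stayed under 1 CPM in each of the 21 samples. Lck averaged 89.5 to 124 CPM in the 4 groups. Cd28 averaged 22.2 and 30.1 CPM in WT and S1PR4-/- GC, against 1.03 and 0.436 CPM in non-GC B cells. Of 6 myeloid markers, 4 of the 4 tested rose in WT GC B cells and 4 of 5 in S1PR4-/- GC B cells, with summed levels of 43.8 to 208 and 36.0 to 138 CPM against 7.07 to 49.3 and 10.6 to 20.0 CPM in WT and S1PR4-/- non-GC B cells, and their part in the results was not tested. Replicate 3 of S1PR4-/- GC B cells stood apart from every other sample in light chain V level and use, so the group values that rest on it are given with and without it. GC B cells were sorted from 6 immunized mice of each genotype by the methods, the number of GC samples, but the labels tie no sample to a mouse. The p-values measure the spread between these samples.

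Light chain V counts per sample ran from 31777 to 620864, so that the exact 95% binomial interval of the share of the segment with the most counts was 0.217 to 0.647 percentage points wide. These intervals cover counting error only. Light chain V transcripts were more abundant in WT GC B cells than in WT non-GC B cells. The summed level of the 104 segments was lowest at 3468, at the median 4357 and highest at 7084 CPM in WT GC B cells. In WT non-GC B cells it was 1038, 1041, 1307, 985 and 1107 CPM. The 2 groups did not overlap, and their means, 4640 ± 1279 (SD, n = 6) and 1096 ± 126 CPM (SD, n = 5), stood 4.24 to 1. In S1PR4-/- GC B cells the sum spread further, at 3705, 9359, 22073, 1338, 1995 and 1071 CPM in replicates 1 to 6, and in S1PR4-/- non-GC B cells it was 1358, 1114, 1192 and 1184 CPM. Here the groups overlapped, since replicate 4 lay within and replicate 6 below the non-GC range. The mean of 6590 ± 8184 CPM fell to 3494 ± 3435 CPM (SD, n = 5) without replicate 3, and the ratio to the non-GC group was 5.44 for means and 2.40 for medians. Between genotypes the order of the GC groups turned on that sample, since S1PR4-/- lay above WT by the mean of all samples, but below it without replicate 3 and by the median (2850 against 4357 CPM).

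Among GC samples, the markers of plasma cells were highest and lowest in the same samples as the light chain V level. Their summed level over 10 genes was 4178 to 9294 CPM in WT GC B cells, 2282 to 17997 CPM in S1PR4-/- GC B cells and 545 to 896 CPM in all non-GC B cells. The highest light chain V levels, in S1PR4-/- GC replicates 3 and 2 and WT GC replicate 2, came with the 3 highest marker levels (17997, 8734 and 9294 CPM). Replicates 4, 5 and 6 of S1PR4-/- GC B cells had the lowest marker levels of the 12 GC samples, 2282, 2678 and 2304 CPM, and also the lowest V levels. Replicates 4 and 6 had V levels of 1338 and 1071 CPM, within or below the S1PR4-/- non-GC range of 1114 to 1358 CPM. Their marker sums nevertheless lay above those of every non-GC sample. Jchain, the joining chain of secreted polymeric antibody, ran from 1207 to 11741 CPM in GC samples and from 13.3 to 243 CPM in non-GC samples. In replicates 4, 5 and 6 of S1PR4-/- GC B cells Jchain made up 1207, 1426 and 1213 CPM of the marker sums. Sdc1 was at 9.71, 19.0 and 11.7 CPM in these samples, within or below the non-GC range of 17.0 to 27.8 CPM. Prdm1, Xbp1 and Mzb1 lay above their non-GC values there. Of the 10 markers, 9 rose in WT and 7 in S1PR4-/- GC B cells against non-GC B cells, where 24.8% and 25.3% of all genes rose. None was called between genotypes (0.0612% of all genes in GC and 0.0537% in non-GC B cells). No marker of the 10 was at 0 in a whole group. The part of plasma cell transcripts in the light chain V level was not tested.

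**Figure D1:**
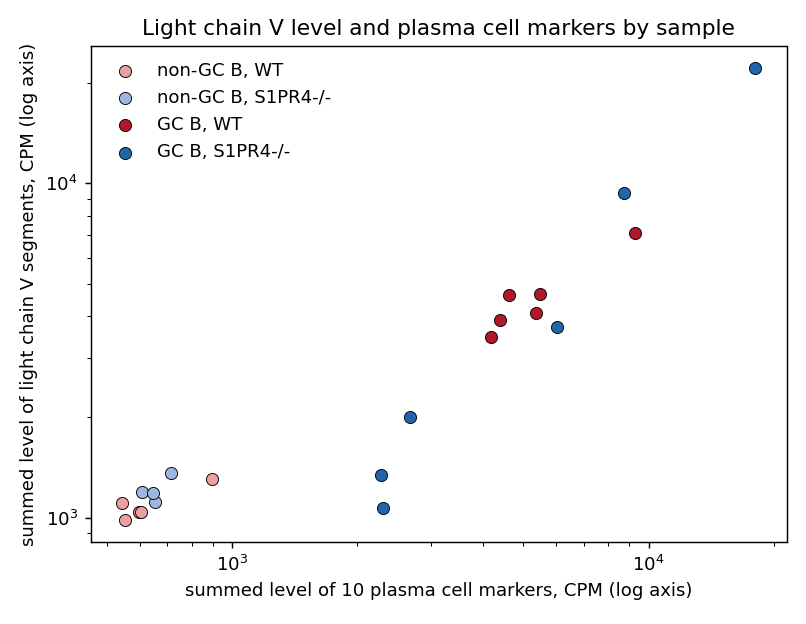
Summed level of the 104 light chain V segments (CPM, log axis) against the summed level of 10 plasma cell markers (CPM, log axis), 1 point per sample, coloured by group. S1PR4-/- GC replicate 3 is at the top right with 17997 CPM of markers and 22073 CPM of V segments, and 3 S1PR4-/- GC samples lie between 2282 and 2678 CPM of markers.

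The V segments kept pace with the kappa constant region. Per 100 counts of Igkc, which encodes the constant part of kappa chains, the Igkv members had 35.0 ± 1.56 counts in WT GC, 34.7 ± 2.91 in S1PR4-/- GC, 33.2 ± 0.731 in WT non-GC and 33.3 ± 0.581 in S1PR4-/- non-GC B cells (SD). The GC samples spanned 31.8 to 39.3 and the non-GC samples 32.1 to 33.8. Lambda behaved otherwise. Per 100 counts of Iglc1, Iglc2 and Iglc3 together, the 3 Iglv members had 26.5 to 50.7 counts in WT GC and 14.2 to 105 in S1PR4-/- GC B cells (14.2 to 60.9 without replicate 3), but 9.76 to 14.8 in WT and 8.98 to 12.2 in S1PR4-/- non-GC B cells. The ranges did not overlap in WT or in S1PR4-/- mice, although S1PR4-/- GC replicates 4 and 6, at 14.2 and 15.8, came close to the non-GC samples.

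Use of the segments was more even in non-GC than in GC B cells. Shares were computed from counts per kb of exon, as percent of all 104 members, and the effective number of segments (the inverse Simpson index) gives how many equally used segments would yield the same concentration. It was 39.0, 41.2, 37.0, 39.9 and 40.7 in WT non-GC B cells and 37.4, 37.9, 40.3 and 37.5 in S1PR4-/- non-GC B cells. In WT GC B cells it was 12.8 at the lowest, 26.1 at the median and 31.9 at the highest, and in S1PR4-/- GC B cells 8.30, 20.9 and 30.3. None of the 12 GC samples reached the lowest non-GC sample. The means were 24.7 ± 6.57 (SD, n = 6) against 39.6 ± 1.65 (SD, n = 5) in WT, and 20.4 ± 7.66 (SD, n = 6) against 38.3 ± 1.37 (SD, n = 4) in S1PR4-/- mice. Without replicate 3 the S1PR4-/- GC mean was 22.9 ± 5.40. WT and S1PR4-/- values overlapped within each population, and no test was run on these scores, since the members were chosen on the same samples.

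A few segments made up more of the GC samples. The first 5 segments of a sample held 28.2 to 51.0% in WT GC and 29.5 to 65.9% in S1PR4-/- GC B cells (29.5 to 43.2% without replicate 3), against 23.2 to 25.0% and 24.6 to 25.9% in WT and S1PR4-/- non-GC B cells. To reach 50%, 5 to 12 segments were needed in WT GC B cells, 3 to 10 in S1PR4-/- GC B cells (7 to 10 without replicate 3), 16 or 17 in WT non-GC B cells and 15 or 16 in S1PR4-/- non-GC B cells. Segments above 1% numbered 21 to 31 in WT GC and 12 to 31 in S1PR4-/- GC B cells (23 to 31 without replicate 3), and 35 to 40 in non-GC B cells. Among the 20 members with under 10% of shared words, the effective number in WT was 4.15 to 7.61 in GC and 8.05 to 9.03 in non-GC samples, without overlap. In S1PR4-/- mice it was 1.54 to 8.04 in GC samples (4.45 to 8.04 without replicate 3) and 7.36 to 8.62 in non-GC samples, so that the ranges overlapped there.

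**Figure D2:**
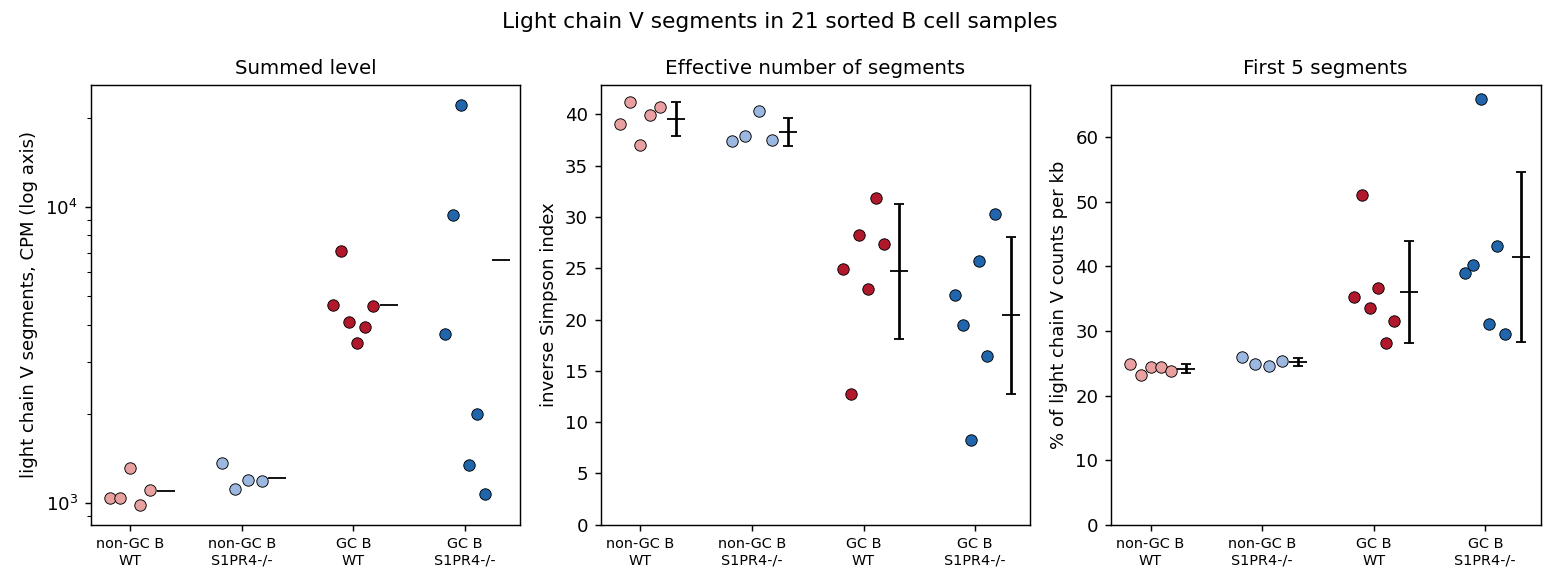
Summed level (CPM, log axis), effective number of segments (inverse Simpson index) and share of the first 5 segments (%) in 21 samples, with the group mean as a bar and, in the middle and right panels, SD as whiskers. All 12 GC samples lie below the 9 non-GC samples in effective number and above them in the share of the first 5 segments, while the summed levels of S1PR4-/- GC B cells span 1071 to 22073 CPM.

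**Figure D3:**
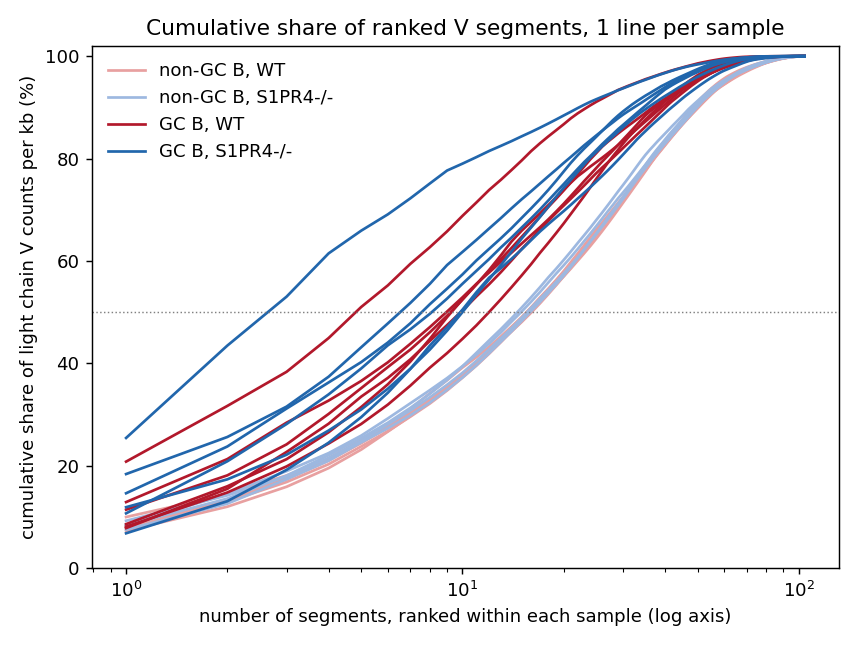
Cumulative share of light chain V counts per kb (%) over segments ranked within each sample (log axis), 1 line per sample, with a dotted line at 50%. The non-GC lines lie on each other and reach 50% at 15 to 17 segments, whereas the GC lines fan out between 3 and 12 segments.

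Different segments led different GC samples. Iglv1, which encodes the V domain of most mouse lambda chains, was first in all 9 non-GC samples, at 8.23, 7.32, 10.0, 7.91 and 7.87% in WT and 8.41, 9.27, 7.55 and 8.35% in S1PR4-/- mice. Igkv6-15 was second in all 9, with 4.40 to 5.56% in WT and 4.96 to 6.12% in S1PR4-/- non-GC B cells. In WT GC B cells the first segment was Iglv1 in replicates 1 (11.4%) and 6 (8.62%), Igkv6-20 in replicate 2 (20.8%), Igkv3-7 in replicate 3 (7.85%), Igkv8-30 in replicate 4 (12.9%) and Igkv10-96 in replicate 5 (8.13%). In S1PR4-/- GC B cells it was Igkv6-15 in replicate 1 (10.7%), Iglv1 in replicates 2 (14.6%) and 5 (18.4%), Igkv16-104 in replicate 3 (25.4%), Igkv17-127 in replicate 4 (11.9%) and Igkv3-2 in replicate 6 (6.83%). Each GC group thus had 5 different leading segments in 6 samples. In WT replicate 3 the lead was narrow, with Iglv1 at 7.67%, and by counts not divided by length Iglv1 led there (8.07%), so that WT GC B cells had 4 leaders by count. In WT GC B cells 14 members passed 5% in at least 1 sample, in S1PR4-/- GC B cells 17 (14 without replicate 3), and in each non-GC group 2.

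Some leaders of a single GC sample, Igkv6-20, Igkv16-104 and Igkv17-127, had much lower shares in the other GC samples of that genotype. Others were also high in samples they did not lead. Igkv6-15 held 7.11% of WT GC replicate 4 and 7.41% of S1PR4-/- GC replicate 2. Igkv8-30 held 6.66% of WT GC replicate 2 and 9.13% of S1PR4-/- GC replicate 2. Igkv6-20 was at 20.8% in WT GC replicate 2, between 0.51 and 2.32% in the other 5 WT GC samples and between 0.18 and 4.66% in S1PR4-/- GC B cells, and it took 1.57, 2.07, 1.58, 1.61 and 1.60% of WT non-GC and 2.15, 1.56, 2.03 and 1.41% of S1PR4-/- non-GC samples. Igkv16-104, whose exon is nearly free of shared words, was at 25.4% in S1PR4-/- GC replicate 3 and at 3.12, 0.81, 0.17, 1.28 and 4.99% in the other 5. Igkv8-21 was second in that same replicate 3 with 18.04%, against 0.94 to 2.35% in the other 5 samples. Igkv17-127 reached 11.9% in S1PR4-/- GC replicate 4 and 4.00% in replicate 5, and lay between 0.36 and 1.75% in the remaining 4.

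Any pair of GC samples from 1 genotype shared less of its light chain V use than any pair of non-GC samples. Shared use was the sum, over members, of the smaller of the 2 shares, so that 100% would mean identical use. It had a median of 56.3% (37.8 to 63.1%) over the 15 pairs of WT GC samples and 52.6% (35.3 to 62.2%) over the 15 pairs of S1PR4-/- GC samples, or 53.5% (47.4 to 62.2%) over 10 pairs without replicate 3. Among non-GC samples it was 91.4% (85.6 to 94.1%) over 10 WT pairs, 90.0% (88.4 to 92.4%) over 6 S1PR4-/- pairs and 90.9% (86.0 to 93.4%) over the 20 pairs of 1 WT and 1 S1PR4-/- sample. A GC sample shared a median of 61.1% with a non-GC sample in WT and 60.4% in S1PR4-/- mice, and a WT with an S1PR4-/- GC sample 52.2%. Among members with a mean share of at least 0.5%, the median coefficient of variation between samples was 84.8% in WT GC, 92.3% in S1PR4-/- GC (84.0% without replicate 3), 12.4% in WT non-GC and 14.8% in S1PR4-/- non-GC B cells. These pairs reuse the same samples and are given as a description.

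**Figure D4:**
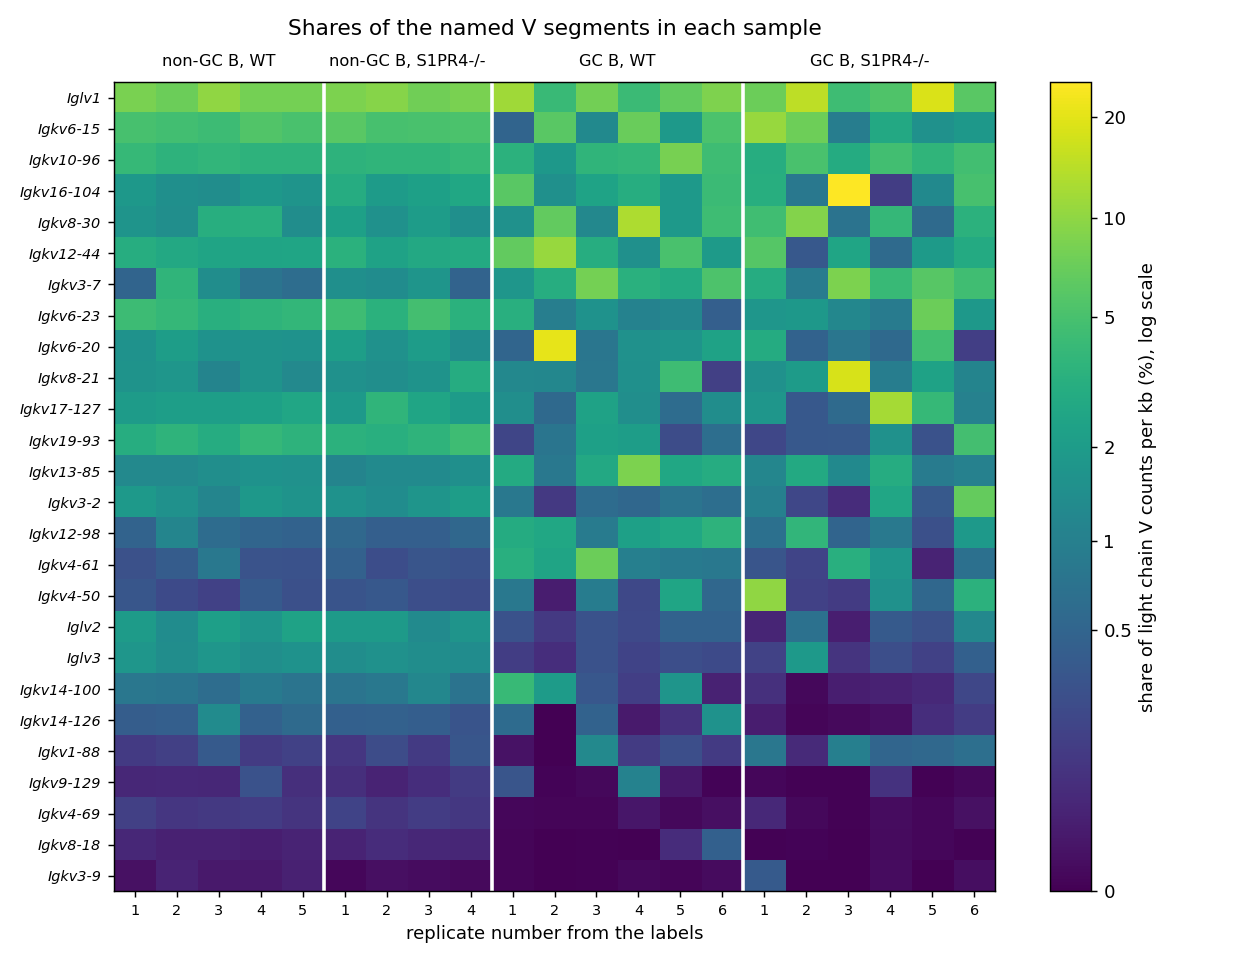
Share of light chain V counts per kb (%, log scale, colour) of the 26 named segments in 21 samples, ordered by mean share, with the replicate numbers of the labels. The non-GC columns look alike, while single GC columns hold a bright cell of their own, such as Igkv6-20 in WT replicate 2 (20.8%) and Igkv16-104 in S1PR4-/- replicate 3 (25.4%).

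Families were compared by the sum of their members' shares. Igkv6 (9 members) was the first family of non-GC B cells, at 16.1 ± 1.31% in WT and 16.9 ± 1.78% in S1PR4-/- mice, and ran from 5.37 to 29.6% in WT GC samples and from 3.75 to 20.96% in S1PR4-/- GC samples. Igkv4, with 30 members, was second in non-GC B cells (11.7 ± 0.698% and 10.9 ± 1.18%) and was the first family by mean in GC B cells of both genotypes (15.5 ± 2.58% and 13.9 ± 4.27%), with ranges that overlapped the non-GC samples. Igkv8 was at 8.83 and 9.86% in WT and S1PR4-/- GC and 8.76 and 8.65% in WT and S1PR4-/- non-GC B cells. In Igkv6, Igkv4 and Igkv8 the GC samples spread more widely than the non-GC samples.

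Of 21 families, 5 had lower shares in every WT GC than in every WT non-GC sample and none had higher shares in that sense. They were Igkv11, Igkv15, Igkv19, Iglv2 and Iglv3. Of these Igkv11 was very low throughout, at 0.0055 to 0.06% in WT GC and 0.0844 to 0.159% in WT non-GC B cells. In S1PR4-/- mice 3 families were lower without overlap, Igkv7, Igkv9 and Iglv2, and again none was higher. Igkv7 was very low, at 0 to 0.008% in GC and 0.012 to 0.0383% in non-GC B cells. By CPM and not by share, 22.6% of all genes in WT and 24.4% in S1PR4-/- mice were lower without overlap. In the same measure 27.7% and 28.7% were higher. Igkv19, with its sole member Igkv19-93, was at 0.22 to 2.23% in WT GC and 2.97 to 3.93% in WT non-GC B cells. In S1PR4-/- mice the GC range of 0.23 to 4.76% overlapped the non-GC range of 3.22 to 4.49%, because replicate 6 was at 4.76%. Shares add to 100%, so a segment that takes a large share lowers the others.

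**Figure D5:**
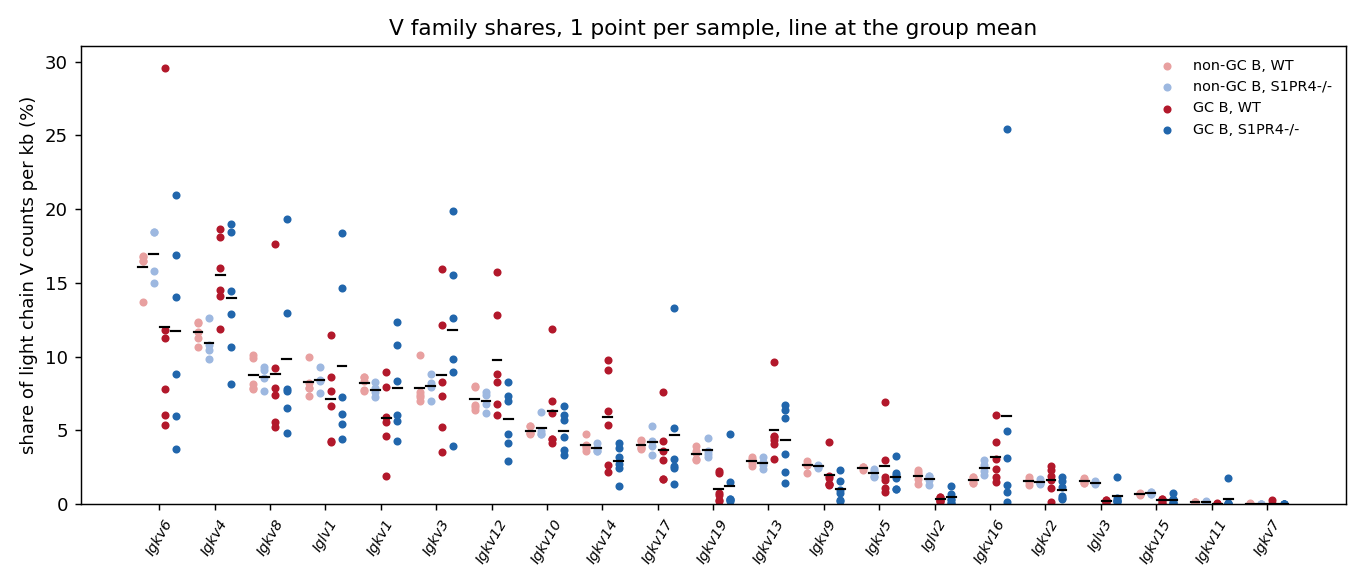
Share of light chain V counts per kb (%) of 21 V families, ordered by the mean in WT non-GC B cells, 1 point per sample and a line at the group mean. In the larger families the GC points spread more widely than the non-GC points, with Igkv6 in WT GC B cells up to 29.6%, while Iglv2 lies lower in GC than in non-GC B cells.

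Shares by position in the kappa locus overlapped between the groups. The Igkv members were divided by position into 4 blocks of 25 or 26, from the end nearest the J segments. The nearest block (Igkv3-1 to Igkv8-30) held 31.2 ± 10.6% in WT GC, 36.3 ± 3.37% in S1PR4-/- GC, 35.1 ± 1.33% in WT non-GC and 35.7 ± 2.01% in S1PR4-/- non-GC B cells. The farthest block (Igkv12-98 to Igkv2-137) held 26.8, 27.4, 26.4 and 26.5% in the same order. Members on the plus strand held 39.6 ± 11.3, 45.5 ± 9.23, 40.2 ± 1.69 and 40.2 ± 1.61% of the kappa shares. The ranges of the non-GC groups lay inside those of the GC groups of the same genotype for both blocks and for the plus strand.

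Lambda segments divided into a kept and a lowered part. All 3 together held 7.70 ± 2.83% in WT GC, 10.4 ± 6.08% in S1PR4-/- GC, 11.8 ± 1.41% in WT non-GC and 11.6 ± 1.04% in S1PR4-/- non-GC B cells, with overlapping ranges. Iglv1 alone ran from 4.22 to 11.4% in WT GC samples and from 4.43 to 18.4% in S1PR4-/- GC samples, around the non-GC values. Iglv2 was at 2.02, 1.37, 2.21, 1.69 and 2.33% in WT non-GC and 1.94, 1.94, 1.31 and 1.66% in S1PR4-/- non-GC B cells, but at 0.15, 0.305 and 0.47% (lowest, median, highest) in WT GC and 0.0576, 0.335 and 1.23% in S1PR4-/- GC B cells. No GC sample reached a non-GC sample of its genotype. Iglv3 was at 1.43 to 1.75% in WT non-GC and 0.106 to 0.300% in WT GC B cells without overlap, while in S1PR4-/- mice 1 GC sample (replicate 2, 1.86%) lay above the non-GC range of 1.38 to 1.57%. Iglv1 and Iglv2 are 97.3% identical, so some reads may match both. Their summed counts over the 21 samples were whole numbers, 204297 and 12421. How many of their reads the model divided was not tested.

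The lambda constant genes also divided, but in level (CPM) and not in share. In level, Iglv1 rose in WT and S1PR4-/- GC B cells (log2 fold change 1.82 and 2.34, edgeR). Iglv2 was called in neither (-0.57, FDR 0.0602, and -0.28, FDR 0.753, edgeR), and Iglv3 was called lower in WT alone. Iglc2 fell in WT GC against non-GC B cells (281 ± 78.6 against 633 ± 27.2 CPM, log2 fold change -1.18, SE 0.16, FDR 3.07e-05, edgeR) and in S1PR4-/- mice (330 ± 197 against 730 ± 22.7 CPM, log2 fold change -1.16, SE 0.32, FDR 0.00745, edgeR). Iglc3 fell in both as well, by 0.62 and 0.87 on the log2 scale. Iglc1 rose in both, by a log2 fold change of 1.34 (SE 0.35) in WT and 1.82 (SE 0.59) in S1PR4-/- mice, as did Igkc, by 2.06 (SE 0.17) and 2.31 (SE 0.79). Iglv2 is known to join mainly to Iglc2, and Iglv1 to Iglc3 or Iglc1. Iglc2 and Iglc3 are near copies, so their division is uncertain. As a share of Igkc and Iglc counts, Iglc made up 6.97 ± 1.97% in WT GC and 11.3 ± 5.93% in S1PR4-/- GC against 28.9 ± 1.21% and 29.9 ± 1.57% in the non-GC B cells, without overlap.

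The test of each gene over the whole table addressed how single segments differed between GC and non-GC B cells. In WT, edgeR tested 98 of the 104 members (6 did not pass its filter on low counts), and 50 were called (FDR below 0.05 together with at least a 1.5-fold difference), or 51%, where 47.8% of all 13324 genes tested were called. Of these 48 were higher in GC B cells, 49% of those tested against a background of 24.8%, and 2 were lower, Iglv3 and Igkv4-69 (background 23.1%). The median log2 fold change of the members was 1.62, against 0 over all genes. The members also varied more between samples, with a median SE of 0.61 on the log2 scale against 0.15 for all genes. Only 19 members had no overlap between the groups (17 higher, 2 lower), while 50.2% of all genes tested had none (27.7% higher, 22.6% lower). A member could enter the list through high counts in GC samples alone, so these counts describe the list and are no support for a direction.

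Igkv12-98, which shares 1.45% of its words with other genes, had the lowest FDR of the members. Its levels in WT GC B cells were 34.8, 112 and 172 CPM (lowest, median, highest), and in WT non-GC B cells 4.66, 11.2, 7.38, 4.71 and 4.84 CPM. All GC samples were above all non-GC samples (log2 fold change 4.04, SE 0.42, FDR 2.73e-06, edgeR). Igkv10-96 was at 124, 149 and 310 CPM in WT GC and 39.8, 35.3, 46.8, 33.1 and 37.2 CPM in WT non-GC B cells (log2 fold change 2.19, SE 0.23, FDR 3.37e-06, edgeR). Its mean share was 4.21% in WT GC and 3.63% in WT non-GC B cells, close to each other beside an SD of 2.11 in the GC samples. Iglv1 rose by a log2 fold change of 1.82 (SE 0.27, FDR 5.29e-05, edgeR), from 96.2 ± 23.6 to 343 ± 135 CPM.

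Igkv3-7 was at 77.4, 161 and 310 CPM in WT GC B cells and 5.01, 36.7, 17.7, 7.12 and 6.64 CPM in WT non-GC B cells, without overlap (log2 fold change 3.58, SE 0.58, FDR 0.000129, edgeR). Igkv4-61, Igkv6-20, Igkv4-50, Igkv8-30, Igkv13-85 and Igkv12-44 rose in the same way, with log2 fold changes of 4.60, 3.98, 3.50, 3.18, 3.16 and 3.15. Of these, Igkv6-20 owed its mean of 295 CPM to replicate 2 at 1486 CPM, and its WT GC median was 60.4 CPM. Igkv16-104 rose too (log2 fold change 3.00, SE 0.32, FDR 3.28e-06, edgeR), from 15.5 to 19.1 CPM in WT non-GC to 75.0 to 285 CPM in WT GC B cells. Iglv3 fell from 18.6, 15.3, 23.1, 14.6 and 17.8 CPM in WT non-GC to 7.38, 9.84 and 12.6 CPM in WT GC B cells (log2 fold change -0.87, SE 0.18, FDR 0.000946, edgeR). Igkv4-69 was low throughout, at 1.34 to 1.81 CPM in WT non-GC and 0.28 to 1.34 CPM in WT GC B cells (log2 fold change -1.21, SE 0.39, FDR 0.0158, edgeR). Iglv2 and Igkv19-93 were not called in level (log2 fold change -0.57, FDR 0.0602, and 0.26, FDR 0.655, edgeR), although their shares were lower.

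In S1PR4-/- mice, 97 members were tested and 29 called, or 29.9% against 48.2% of all genes. Of these 26 were higher in GC B cells (26.8% of those tested, background 25.3%) and 3 lower (background 22.9%). The lower ones were Igkv8-18, Igkv14-126 and Igkv9-123, the last of these named after its value was seen. Igkv8-18 and Igkv9-123 were low, at means of 0.266 and 0.371 CPM in GC and 1.09 and 1.09 CPM in non-GC B cells. The median log2 fold change was 1.28 (0.03 over all genes) with a median SE of 0.91, and 6 members did not overlap (4 higher, 2 lower), against 53.1% of all genes (28.7% higher, 24.4% lower). Without GC replicate 3 the number called was 24 (19 higher, 5 lower) and the median log2 fold change 0.80. The number called was 15 without non-GC replicate 2, 3 or 4, each left out in turn. In WT it stayed between 44 and 57 whichever sample was left out. Of the 29 called, 23 were also called in WT in the same direction, 79.3% of the S1PR4-/- and 46% of the WT list, and over all genes the shares were 83.9% and 85.5%.

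Igkv3-7 was the member with the largest rise among those without overlap in S1PR4-/- mice, at 47.3, 94.2 and 1779 CPM (lowest, median, highest) in GC and 19.4, 14.8, 19.4 and 5.56 CPM in non-GC B cells (log2 fold change 4.61, SE 1.27, FDR 0.00769, edgeR). Igkv4-50 was at 10.1 to 359 CPM in GC and 2.91 to 4.16 CPM in non-GC B cells (log2 fold change 4.49, SE 1.12), and Igkv1-88 at 6.76 to 212 and 1.84 to 3.95 CPM (4.11, SE 1.19). Igkv10-96 again separated the populations, at 48.3 to 611 against 39.4 to 46.1 CPM, with a log2 fold change of 2.38 (SE 0.76, FDR 0.0168, edgeR). Igkv14-126 fell from 5.82, 4.90, 4.84 and 3.62 CPM in non-GC to 0.319, 1.86 and 2.92 CPM in GC B cells (log2 fold change -1.59, SE 0.48, FDR 0.0126, edgeR). Igkv16-104 was called with a log2 fold change of 5.00 (SE 1.96, FDR 0.0423, edgeR), but its GC samples ran from 2.36 to 5641 CPM around the non-GC range of 22.5 to 40.9 CPM, and the highest value was replicate 3. Without that sample it was not called (log2 fold change 0.85, SE 0.74, FDR 0.333, edgeR), while Igkv3-7, Igkv1-88, Igkv4-50, Igkv10-96 and Igkv14-126 were, with log2 fold changes of 2.42, 2.23, 4.64, 1.79 and -1.85.

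Between genotypes, no member was called in GC B cells. edgeR tested 88, of which 0 passed the thresholds (0.0612% of all genes did) and 12 had an unadjusted p under 0.05 (4.13% of all genes), and DESeq2 called 1, Igkv14-100. The lowest FDR among members was 0.985, and no member separated the genotypes without overlap (0.207% of all genes did). Igkv14-100 was at 182, 133, 13.5, 5.90, 64.0 and 3.04 CPM in WT GC replicates 1 to 6 and 4.07, 1.22, 12.0, 0.88, 1.72 and 2.28 CPM in S1PR4-/- GC replicates 1 to 6. WT replicates 1, 2 and 5 were far above all S1PR4-/- samples, and the other 3 lay within or near the S1PR4-/- range (log2 fold change -4.16, SE 1.04, FDR 0.985, edgeR). Under DESeq2 its log2 fold change was -4.14 with an adjusted p of 0.0155. Igkv14-126 (log2 fold change -3.68, SE 1.04) and Igkv9-129 (-4.25, SE 1.28) came next, each with an FDR of 0.985 by edgeR. WT samples did not move as a group: replicates 1, 3, 5 and 6 for Igkv14-126 and replicates 1, 4 and 5 for Igkv9-129 lay above the highest S1PR4-/- sample. The median SE of the members was 0.89 on the log2 scale, against 0.13 for all genes, which limits the size of a difference that could be detected between these GC samples.

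In non-GC B cells the spread was smaller, and again no member passed the thresholds between genotypes. edgeR tested 98 members and called 0 (0.0537% of all genes), with 7 at an unadjusted p under 0.05 (4.55% of all genes), and DESeq2 called 1, Igkv16-104. The median log2 fold change was 0.10 and the median SE 0.24, and the log2 fold change was above 0 for 71 members (48.2% of all genes). Igkv16-104 was at 19.1, 15.5, 18.8, 18.4 and 18.7 CPM in WT and 40.9, 22.5, 27.2 and 31.8 CPM in S1PR4-/- non-GC B cells. All 4 S1PR4-/- samples lay above all 5 WT samples, by a log2 fold change of 0.76 (SE 0.16, FDR 0.526, edgeR), and DESeq2 gave an adjusted p of 0.0112. Igkv16-104, Igkv8-18 and Igkv3-9 were the 3 members without overlap, against 1.76% of all genes. Igkv8-18 was low, at a mean of 0.82 CPM in WT and 1.09 CPM in S1PR4-/- mice (log2 fold change 0.40, SE 0.37, FDR 0.985, edgeR). Igkv8-21 (16.3 ± 1.66 CPM in WT, 23.8 ± 8.88 CPM in S1PR4-/- mice) had a log2 fold change of 0.54 (SE 0.20, FDR 0.981, edgeR) and Igkv3-9, below 1 CPM in all 9 samples, of -1.40 (SE 0.54, FDR 0.981, edgeR).

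The interaction term asked whether the difference between GC and non-GC B cells was itself different between genotypes. edgeR tested 103 members in a fit of all 21 samples and called 0, as it did for all 14490 genes, with 10 members at an unadjusted p under 0.05 (4.58% of all genes) and 0 called by DESeq2. The lowest p among members belonged to Igkv14-100 (interaction -4.55 on the log2 scale, SE 1.16, FDR 0.665, edgeR), Igkv8-18 (-4.47, SE 1.59) and Igkv9-129 (-4.18, SE 1.49). The median SE of 1.14 for members, against 0.24 for all genes, again sets the size of a difference that could be seen. These comparisons share samples with those above and are no separate evidence.

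The genes that make and assemble light chains gave a background to these levels. Of 9 genes of immunoglobulin transcription and assembly, 4 rose in GC against non-GC B cells in each genotype (Pou2af1, Jchain, Mzb1 and Hspa5), or 4 of 9 where 24.8% of all genes rose in WT and 25.3% in S1PR4-/- mice, and none fell. Jchain and Mzb1 are also among the plasma cell markers above, so the 2 lists are not separate. Pou2af1, the B cell coactivator of octamer-binding factors at V promoters, rose by a log2 fold change of 1.59 (SE 0.13, FDR 4.66e-07, edgeR) in WT and 1.82 (SE 0.10, FDR 5.55e-08, edgeR) in S1PR4-/- mice. It was at 1244 to 1595 CPM in the 6 S1PR4-/- GC samples, a narrow range beside the others that rose: Jchain ran from 1207 to 11741 CPM there, Mzb1 from 403 to 1916 CPM and Hspa5, a chaperone of antibody folding, from 943 to 4636 CPM. Of 7 genes of the surrogate light chain and of V(D)J recombination, only Vpreb3 was tested in both comparisons. It was called in S1PR4-/- mice (log2 fold change 0.62, SE 0.11) and not in WT (0.35, SE 0.11, below the fold threshold). Rag1, a subunit of the recombinase, averaged at most 0.064 CPM in any B cell group, and Rag2 and Igll1 at most 0.007 CPM.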

How the data were processed

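RNA was measured in 45 samples of cells sorted from dLN, and the 21 B cell samples were analysed here. For the 24 CD4+ T cell samples only the summed light chain V level is given. The authors captured mRNA on oligo-dT beads, prepared stranded libraries and, per the submitters' processing notes and the study's methods, processed the reads with Cutadapt 2.10, STAR 2.5.3 (mm10), Picard and RSEM 1.3.0, the last giving the gene quantities. The authors deposited expected counts per gene, neither scaled for depth nor length, of which 8.83% were not whole numbers. RSEM divides reads that match several V segments by likelihood. The reference is germline, and how somatic mutation changed the alignment of V reads was not tested. Which libraries came from low RNA input, and how many cells were sorted, are not given in the sources used here. The methods name GENCODE M30, whereas the symbols match release M21, which gave coordinates and exon lengths.

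Counts were rounded, filtered (filterByExpr), normalized by TMM and tested with the quasi-likelihood test of edgeR 4.0.16 in R 4.3.3, over all genes of the 2 groups compared, with Benjamini-Hochberg adjustment and without covariates. SE were derived from the F statistic. CPM are counts scaled to the TMM library size. The study used DESeq2, which was run here (version 1.42.0) as an alternative, beside other normalizations, filters, indices, a replicate block and leaving out each sample. Scripts were tested on simulated data with fixed seeds. Shares, indices and figures were made in Python 3.11.15 with pandas 2.3.3 and matplotlib 3.10.9. Words of 31 bases were compared over all M21 transcripts.

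The members and gene lists were chosen with earlier results of these data known. Named members were the 5 with the highest mean share in each group, the first of each sample, up to 8 called members per direction and comparison whose samples did not overlap and whose mean reached 1 CPM, the 3 with the lowest p in each comparison of genotypes or the interaction, the neighbours of the threshold of 100 counts, and the lambda segments. Every sample was kept. The precision of counts per sample is given with the results. V promoter and protein sequences were not used here.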

Additional observations from a re-analysis of the deposited data

Results flagged for a closer look

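For 29 values in each of the 4 B cell groups (the summed level, the effective number, the lambda share and the shares of the 26 named segments), 116 groups of values in all, the highest and lowest sample were compared with the rest by Dixon's criterion. Chance marks about 1 in 20 groups where values are not chosen by their level. That rate does not apply to the segments, which were named in part for leading a sample or for a high mean share, so the count is a description only. A sample stood apart in 29, always as the highest value, with 9 in WT GC, 11 in S1PR4-/- GC, 7 in WT non-GC and 2 in S1PR4-/- non-GC B cells. No cause was tested.

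In WT GC B cells, replicate 2 stood apart in summed level (7084 CPM) and in the share of Igkv6-20 (20.8%). Replicate 3 did so for Igkv1-88 (1.26%), replicate 4 for Igkv13-85 (8.40%) and Igkv9-129 (1.08%), replicate 5 for Igkv4-50 (2.48%) and Igkv8-21 (4.46%), and replicate 6 for Igkv14-126 (1.59%) and Igkv8-18 (0.442%).

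In S1PR4-/- GC B cells, replicate 3 stood apart in Igkv16-104 (25.4%) and Igkv8-21 (18.04%). Replicate 1 did so for Igkv4-50 (10.2%), Igkv3-9 (0.381%) and Igkv4-69 (0.0914%), replicate 2 for Iglv3 (1.86%), replicate 4 for Igkv17-127 (11.9%) and Igkv9-129 (0.127%), replicate 5 for Igkv6-23 (7.24%), and replicate 6 for Igkv19-93 (4.76%) and Igkv3-2 (6.83%).

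In non-GC B cells the marked values were mostly small. In WT, replicate 2 was highest for Igkv12-98 (1.15%), Igkv3-7 (3.65%) and Igkv6-20 (2.07%), replicate 3 for Igkv1-88 (0.380%), Igkv14-126 (1.35%) and Igkv4-61 (0.813%), and replicate 4 for Igkv9-129 (0.303%). In S1PR4-/- mice, replicate 3 was highest in the effective number (40.3) and replicate 4 in Igkv8-21 (3.02%).

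Light chain V counts were also present in the CD4+ T cell samples, which no comparison used. These T follicular helper (Tfh, PD1+ CXCR5+) and non-Tfh (PD1- CXCR5-) cells were sorted on day 6, and the B cells on day 9. On library totals, the summed level was 52.1, 103 and 285 CPM (lowest, median, highest) in WT Tfh cells, with 285 CPM in replicate 5. It was 0.022 to 19.9 CPM in S1PR4-/- Tfh cells, 1.23 to 23.8 CPM in WT non-Tfh cells and 0.156 to 3.45 CPM in S1PR4-/- non-Tfh cells.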

How the results depend on the processing

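Depth was ample for the leading segments, and the spread between GC samples and the sharing of sequence between segments limited single members. Calls between GC and non-GC B cells in S1PR4-/- mice numbered 15 to 35 with 1 sample left out, with 15 without non-GC replicate 2, 3 or 4, and in WT 44 to 57. The mean summed level of S1PR4-/- GC B cells was 3494 to 7694 CPM, lowest without replicate 3, where it lay below that of WT GC B cells (4640 CPM) and not above it. DESeq2 called 1 member between genotypes in GC B cells and 1 in non-GC B cells, where edgeR called 0, and the cause was not tested. The exponential of the Shannon entropy, a different index, gave 37.5, 32.8, 55.9 and 54.6 effective segments in WT GC, S1PR4-/- GC, WT non-GC and S1PR4-/- non-GC B cells. Kappa segments only gave 43.9 and 42.2 in WT and S1PR4-/- non-GC B cells, and leaving out each sample's first segment gave 45.8 and 44.1. The GC values under these 2 settings are not given here. Lambda measured on constant regions, as the Iglc share of Igkc and Iglc counts, was 28.9% and 29.9% in WT and S1PR4-/- non-GC B cells. The lambda V share was 11.8% and 11.6% there, so the 2 measures differed. In WT and S1PR4-/- GC B cells the Iglc share was 6.97% and 11.3%, and the lambda V share 7.70% and 10.4%. With the replicate number as a block, over the 5 and 4 shared numbers, 41 members were called in WT (35 higher, 6 lower; 41.8% against 47.3% of all genes) and 27 in S1PR4-/- mice (19 higher, 8 lower; 28.4% against 43.1%), so that lower calls rose from 2 and 3, the median log2 fold changes were 0.86 and 0.67, and 0 between genotypes in either population or in the interaction. Whether equal numbers mark the same mouse is not known. Deviations from the group means, compared between same-numbered GC and non-GC samples, had correlations of -0.058 to 0.135, over 0.1 in 2 of 9 pairs. Of 9 samples, 2 correlated best with their own number. Low correlations between 2 different sorted populations cannot decide whether the samples were paired. The other alternatives, among them normalizations and filters on low counts, moved no total count of calls by more than 1.5 times.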
